A study of Mus musculus with 9 samples.

Results

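Cohesin genes that are best known from meiosis were followed in mouse embryonic stem cells with and without siRNA against Stag3. The members are the rows of the deposited gene table whose symbol is Stag3, Rec8 or Smc1b, and all 3 were found among the 16636 genes of the table and passed the filter that kept 14246 genes for testing. They are Stag3 (ENSMUSG00000036928), Rec8 (ENSMUSG00000002324) and Smc1b (ENSMUSG00000022432). All cells were E14, a wildtype mouse embryonic stem cell line, held in the naive state on fibronectin in 2i medium. The medium held the MEK inhibitor PD0325901 at 1 µM, the GSK3 inhibitor CHIR99021 at 3 µM, KnockOut Serum Replacement and LIF at 1000 U/ml. The untreated group received no siRNA. The siLuc group received a control siRNA against luciferase, and the siStag3 group received siRNA against Stag3. Each siRNA was given for 48 hours, in a pair of transfections of 50 pmol with RNAiMax. Each group had 3 libraries, described by the submitters as biological replicates of this single cell line. The knockdown is a transient one in a mixed population, and in bulk RNA fewer cells with a transcript and less of it per cell cannot be told apart.

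Cohesin is a ring of SMC and kleisin proteins, with a STAG subunit attached to the kleisin, that encircles DNA, holds sister chromatids together and extrudes chromatin loops. In dividing somatic cells the ring is built from SMC1A, SMC3, RAD21 and either STAG1 or STAG2. Germ cells in meiosis use further paralogs: STAG3 takes the STAG position, REC8 is a kleisin that takes the place of RAD21, and SMC1B takes the place of SMC1A. These proteins form the axis of meiotic chromosomes, on which homologs pair and recombine, and their genes are usually kept low outside the germline by DNA methylation and promoter-bound repressors.

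Total counts ran from 29332436 to 44527534 per library. Each group held 2 libraries whose column names read Set 1 (experiments 1 and 3) and 1 library that reads Set 3 (experiment 5, or experiment 1 for siLuc). What a set or an experiment stands for is not given in the sources used here. The sets differ widely across the whole table, so each member is given with and without the set in the edgeR quasi-likelihood fit, and within each set. The cell type on the label matched its markers. In each library 7 pluripotency genes (among them Pou5f1, Nanog and Esrrb) summed to between 4372 and 4812 CPM (counts relative to the TMM-scaled total of the library). Markers of other pluripotent states were not summed, so the naive state itself was not tested. The other marker sums were low, at 1.58 to 3.48 CPM for 5 primitive endoderm genes and 1.32 to 2.44 CPM for the 4 fibroblast genes analysed. The 3 two-cell-like genes analysed summed to 0.888 to 1.92 CPM. The 6 germ cell genes summed to 60.9 to 95.9 CPM, most of it from Dazl (14.3 to 53.2) and Prdm1 (21.6 to 38.2), while Ddx4, a germ cell helicase, was at 2.32 to 5.24 CPM. In siStag3 the germ cell sum ran from 60.9 to 90.1 CPM, against 77.4 to 95.9 in siLuc and 66.4 to 90.0 in untreated cells. Its part in the results below was not tested.

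The promoters of the members are shown because germline genes are often controlled there, by E2F-family sites, E-boxes and CpG methylation. Each window of 300 bases lies mostly upstream of the gene's start and ends shortly after it in RefSeq (GRCm38.p6), and is written 5′ to 3′ on the gene's strand. Capitals mark every match, on either strand, to TCCCGC (an E2F core), CACGTG (an E-box) or TCTCGCGA. The last of these was searched for after the windows had been read.
Stag3, chr5:138280259-138280558, plus strand: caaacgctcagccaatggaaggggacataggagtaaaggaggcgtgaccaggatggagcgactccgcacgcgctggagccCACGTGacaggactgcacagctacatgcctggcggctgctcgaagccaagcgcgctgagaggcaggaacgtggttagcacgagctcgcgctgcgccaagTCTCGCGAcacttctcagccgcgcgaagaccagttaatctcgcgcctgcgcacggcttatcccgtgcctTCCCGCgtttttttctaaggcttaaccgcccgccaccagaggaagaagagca
Rec8, chr14:55617916-55618215, plus strand: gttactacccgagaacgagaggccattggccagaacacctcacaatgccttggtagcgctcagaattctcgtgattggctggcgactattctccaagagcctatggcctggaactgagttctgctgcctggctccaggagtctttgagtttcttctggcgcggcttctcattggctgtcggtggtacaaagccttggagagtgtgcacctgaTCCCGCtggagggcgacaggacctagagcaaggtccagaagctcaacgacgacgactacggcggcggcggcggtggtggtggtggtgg
Smc1b, chr15:85131908-85132207, minus strand: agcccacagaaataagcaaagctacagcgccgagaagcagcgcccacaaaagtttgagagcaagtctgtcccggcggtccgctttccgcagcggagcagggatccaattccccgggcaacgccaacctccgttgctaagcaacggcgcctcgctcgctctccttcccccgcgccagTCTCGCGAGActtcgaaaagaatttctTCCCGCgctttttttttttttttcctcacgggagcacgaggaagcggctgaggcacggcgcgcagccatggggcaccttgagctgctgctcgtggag
All 3 windows held 1 match to TCCCGC, which 20% of the 32851 RefSeq promoter windows also hold. The Stag3 window held the only CACGTG of the 3, a motif present in 7.15% of all windows. TCTCGCGA was present once in the Stag3 window and at 2 overlapping positions of a palindrome in the Smc1b window, was not in the Rec8 window, and occurs in 0.995% of all windows. Stag3 and Smc1b held both TCCCGC and TCTCGCGA, as did 0.396% of all windows. Because TCTCGCGA was picked from these windows and the background was not matched for CpG, these low shares are not a test of the members. The Stag3 and Smc1b windows were rich in CpG, with 30 and 29 sites, and that of Rec8 held 18, against a median of 7 over all windows. Fewer sites than in Stag3, Smc1b and Rec8 were held by 88.3%, 87.1% and 70.3% of all windows. Neither trait is particular to the members. The windows of the somatic Stag1, Smc1a and Smc3 held 43, 23 and 32 CpG sites, and each also held TCCCGC. That of Rad21l, the other meiotic kleisin, held 2 CpG sites and no match to any of the motifs searched. The motif counts are matches of letters, and no binding or methylation was measured here.

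Stag3, the STAG subunit of meiotic cohesin and the target of the siRNA, was present in untreated cells and was lower in every siStag3 library. Untreated libraries held 24.1 and 24.3 CPM in Set 1 and 28.6 in Set 3, from 859, 823 and 1320 counts. The siLuc libraries held 22.5 and 23.3 CPM in Set 1 and 26.7 in Set 3, and the siStag3 libraries 13.5, 15.2 and 15.6 CPM, from 481, 482 and 474 counts. The highest siStag3 library stayed below the lowest library of either other group, while siLuc and untreated libraries overlapped.

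**Figure D1:**
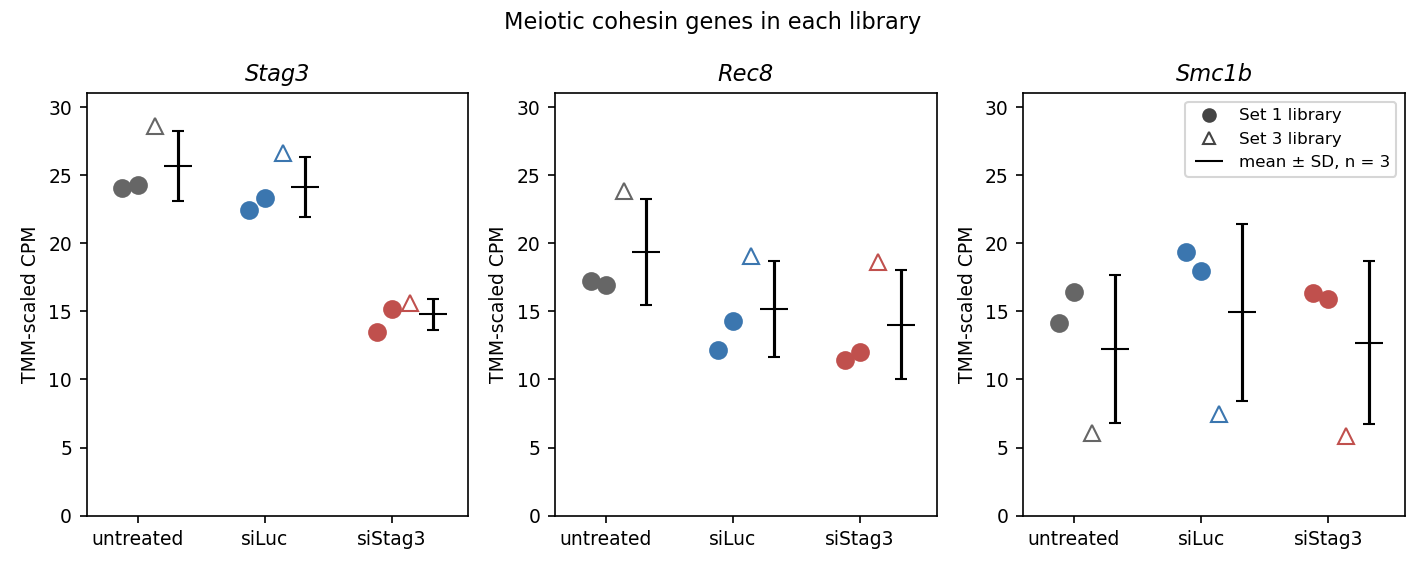
TMM-scaled CPM (vertical axis) of Stag3, Rec8 and Smc1b in each library of the 3 groups (horizontal axis), with filled circles for Set 1, open triangles for Set 3 and the mean ± SD of 3 libraries in black. Stag3 in siStag3 lies between 13.5 and 15.6 CPM, below all other libraries, whereas the Set 3 triangle of Smc1b lies below both circles in each group.

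The siStag3 mean of Stag3 was 61.2% of the siLuc mean. Without the set its log2 fold change was -0.71 (SE 0.110, 95% interval -0.96 to -0.46, edgeR adjusted p 0.605). With the set in the fit it was again -0.71 (SE 0.0722) and passed the threshold of 0.05 (edgeR adjusted p 0.00205), as it did with a further correction for GC content (-0.69, edgeR adjusted p 6.43e-06). The difference was -0.67 within Set 1 (-0.73 in experiment 1 and -0.62 in experiment 3) and -0.77 within Set 3, and the test of the difference between the sets gave -0.09 (edgeR adjusted p 0.749). Against untreated cells Stag3 differed by -0.80 (edgeR adjusted p 0.0604) without the set and fell by 0.79 with it (SE 0.0717, edgeR adjusted p 9.18e-05). Between siLuc and untreated cells it differed by -0.09 with the set (95% interval -0.24 to 0.06, edgeR adjusted p 0.429).

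Without the set, 0 members passed the edgeR threshold in any contrast, where 0% of all tested genes passed in siStag3 against siLuc, 0.00702% in siLuc against untreated and 0.014% in siStag3 against untreated. At an unadjusted p under 0.05 that fit held 307 genes in siStag3 against siLuc, which is only 2.15% of the 14246 tested. The DESeq2 Wald test called 7 of the 14246 genes there, with Stag3 at an adjusted p of 9.08e-05. With the set, 1 of 3 members (Stag3) passed in siStag3 against siLuc, against 0.0281% of all genes, or 0.358% with the GC correction. Leaving out the siStag3 library of Set 1, experiment 1 ended this call (edgeR adjusted p 0.0582 with the set), and Stag3 passed in the other 5 of 6 such fits. Stag3 was the only member whose libraries did not overlap between groups. It was lower throughout in siStag3 than in siLuc, as were 3.41% of all genes, and than in untreated cells, as were 5.38%. No member was lower throughout in siLuc than in untreated cells, where 10.3% of all genes were. The two-sided exact permutation test on Stag3 CPM gave p = 0.1 for each of those comparisons, the smallest that 3 against 3 libraries allow (0.45 after adjustment over 9 tests).

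Rec8, the meiotic kleisin, held its highest levels in untreated cells in each set. Untreated libraries were at 17.3 and 17.0 CPM in Set 1 and 23.9 in Set 3. Libraries of siLuc were at 12.2, 14.3 and 19.1 CPM in the same order, and those of siStag3 at 11.4, 12.01 and 18.6. Across sets the groups overlapped, since the Set 3 library was the highest of each group. Within a set, every siRNA-treated library was below every untreated library. The share of all genes with this order was not counted, so it is a description only.

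The siLuc mean of Rec8 was 78.5% of the untreated mean, and the siStag3 mean was 72.4% of it. With the set in the fit, Rec8 fell in siLuc by 0.35 on the log2 scale (SE 0.0814, edgeR adjusted p 0.0329) and in siStag3 by 0.48 (SE 0.0820, edgeR adjusted p 0.00720), both against the same untreated libraries. Without the set the same contrasts gave -0.35 (edgeR adjusted p 0.623) and -0.47 (edgeR adjusted p 0.873). Between siStag3 and siLuc it differed by -0.13 with the set (95% interval -0.31 to 0.05, edgeR adjusted p 0.719). The GC correction put it at -0.21 (95% interval -0.36 to -0.05, edgeR adjusted p 0.298). The differences from untreated cells were -0.37 (siLuc) and -0.54 (siStag3) within Set 1, and -0.32 and -0.36 within Set 3.

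With the set, the members past the threshold against untreated cells were Rec8 alone in siLuc (1 of 3), where 4.2% of all genes passed, and Stag3 and Rec8 in siStag3 (2 of 3), where 2.53% did. The call of Rec8 in siLuc was not firm. With the GC correction it was -0.21 (edgeR adjusted p 0.0798), and 0 of 3 members passed although 7.13% of all genes did. With the set it was kept in 1 of 6 fits that left out a library, that without the siLuc library of Set 1, experiment 3 (edgeR adjusted p 0.0340). The other 5 fits gave adjusted p-values of 0.0648 to 0.153. In siStag3 against untreated the GC correction left Rec8 at -0.41 (edgeR adjusted p 0.00110), with 2 of 3 members and 6.54% of all genes past the threshold. That call was lost without the siStag3 library of Set 1, experiment 1 (edgeR adjusted p 0.0785) and kept in the other 5 fits.

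Smc1b, the meiotic SMC subunit, did not pass the threshold in any comparison of groups, and its levels followed the set. Set 1 libraries of untreated cells were at 14.1 and 16.4 CPM, those of siLuc at 19.4 and 17.9, and those of siStag3 at 16.4 and 15.9. Set 3 libraries were at 6.09, 7.43 and 5.84 CPM in the same order, from 281, 236 and 177 counts. In both sets the siLuc libraries were the highest, an order whose share over all genes was not counted. Against untreated cells Smc1b in siLuc differed by 0.29 with the set (95% interval 0.10 to 0.47, edgeR adjusted p 0.0674), and by 0.12 with the GC correction (edgeR adjusted p 0.353). In siStag3 it differed from siLuc by -0.24 with the set (95% interval -0.43 to -0.06, edgeR adjusted p 0.505). Against untreated cells siStag3 differed by 0.04 (95% interval -0.15 to 0.23), which turned to -0.06 with the GC correction. Without the set, the interval of siStag3 against siLuc ran from -1.31 to 0.85.

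**Figure D2:**
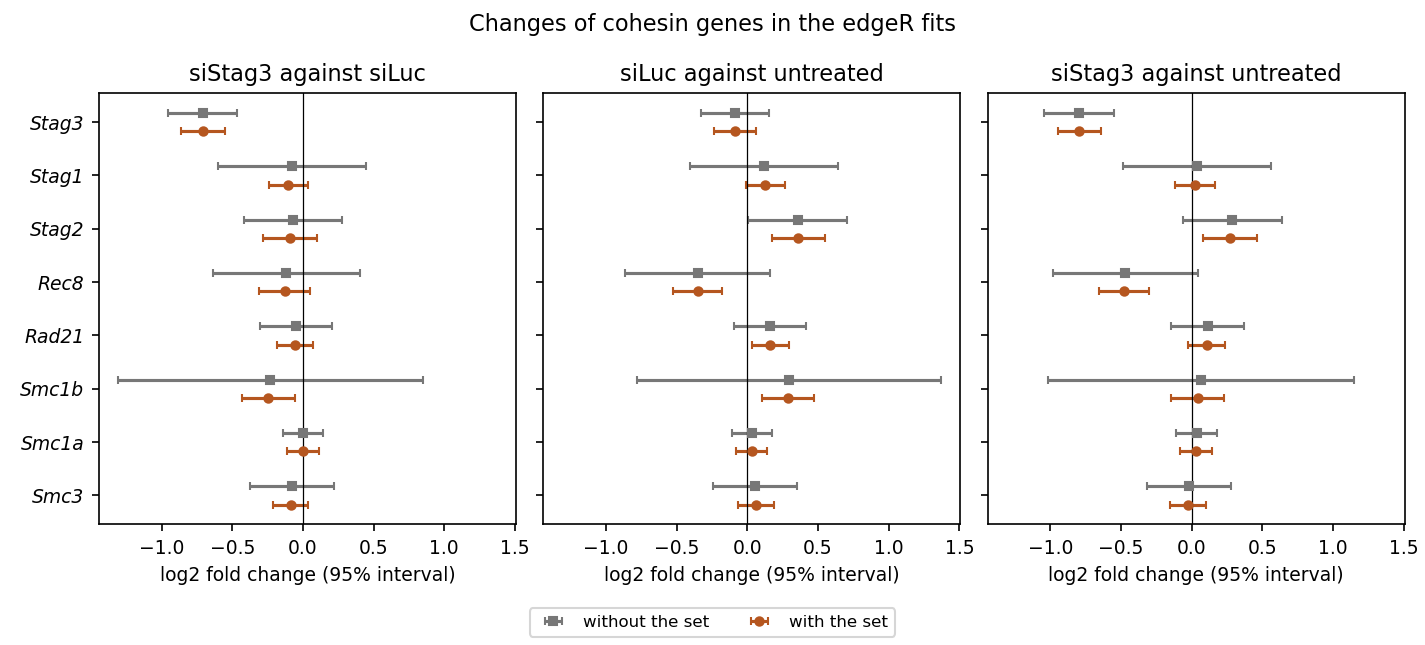
Log2 fold changes (horizontal axis) with 95% intervals of the members and their somatic paralogs and partners in the 3 contrasts, from the edgeR fits without the set (grey squares) and with it (orange circles). Stag3 lies at -0.71 in siStag3 against siLuc in both fits, and the interval of Smc1b there narrows from -1.31 to 0.85 without the set to -0.43 to -0.06 with it.

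All 3 members differed between the sets, with unlike sizes and signs, and 42.7% of all tested genes did so (42.5% with the GC correction). Smc1b was 2.58-fold lower in Set 3, a log2 difference of -1.37 (SE 0.0809, edgeR adjusted p 1.64e-07), with 14.1 to 19.4 CPM in the 6 Set 1 libraries and 5.84 to 7.43 in the 3 Set 3 libraries. Only 0.891% of tested genes differed by more. Rec8 was higher in Set 3 by 0.55 (SE 0.0695, edgeR adjusted p 5.94e-05), at 18.6 to 23.9 CPM against 11.4 to 17.3 in Set 1. Stag3 was higher by 0.20 (SE 0.0608, edgeR adjusted p 0.0180), and without the untreated Set 3 library this no longer passed (edgeR adjusted p 0.114).

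GC content of the transcripts moved with the difference between the sets (Spearman's rho 0.471 across 14226 genes, which share libraries and are not independent). The longest Smc1b transcript is 39.8% GC, that of Stag3 49.1% and that of Rec8 56.7%, the same order as their differences between the sets. In the GC bin of Smc1b, which holds 711 genes, the median difference was -0.23, and 1.41% of those genes were lower than Smc1b. In the bin of Rec8 the median was 0.20. The GC correction left Smc1b at -1.14 (edgeR adjusted p 6.59e-10), Rec8 at 0.36 (edgeR adjusted p 7.95e-05) and Stag3 at 0.24 (edgeR adjusted p 0.00131). For Rec8 and Smc1b the change of siStag3 against siLuc did not differ past the threshold between sets (interaction 0.15 and -0.14, edgeR adjusted p 0.639 and 0.717), where 1.12% of all genes did. GC content also moved with the differences between groups over the 14226 genes. Log2 fold changes from untreated cells gave a rho of -0.484 in siLuc and -0.311 in siStag3. Those between both siRNA groups gave 0.373. In siLuc, the changes from untreated cells with the set ran from Rec8 (-0.35) over Stag3 (-0.09) to Smc1b (0.29), the order of falling GC content. The cause of this order was not tested.

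**Figure D3:**
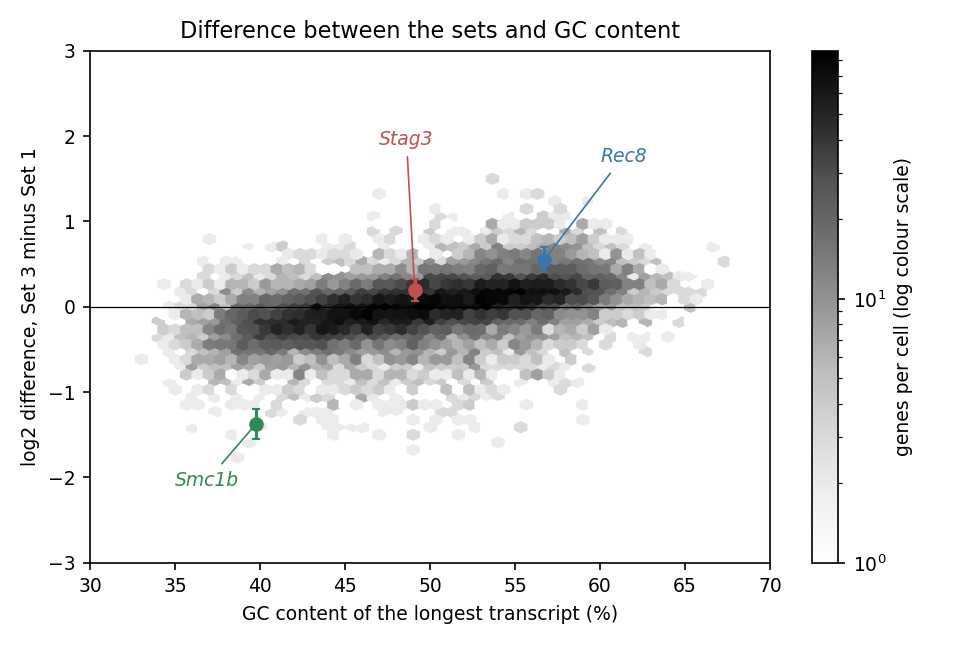
Log2 difference of Set 3 from Set 1 (vertical axis) against the GC content of the longest transcript (horizontal axis, percent) for 14226 genes, shaded by the number of genes per cell on a log colour scale, with the members and their 95% intervals in colour. Smc1b at -1.37 lies below most genes of its GC content, and Rec8 at 0.55 and Stag3 at 0.20 lie above the medians of theirs.

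In untreated cells the mean level of each member per transcript length was below that of each somatic subunit. On the scale of counts per base of the longest transcript, brought to the same total in each library, the untreated mean was 21.9 ± 4.40 for Rec8, 13.6 ± 1.35 for Stag3 and 7.47 ± 3.28 for Smc1b (SD, n = 3). The somatic kleisin Rad21 was at 195 on that scale, Smc3 at 157, Smc1a at 98.5, Stag1 at 57.4 and Stag2 at 28.1. The untreated libraries of Rec8 overlapped those of Stag2 (24.7 to 30.4). Libraries of Rec8 (18.6 to 26.9) did not overlap those of Stag3 (12.5 to 15.1), and those of Stag3 did not overlap those of Smc1b (3.71 to 9.71). The order of Rec8 and Stag3 rests on the length used: with the median transcript length Stag3 was at 27.4 ± 2.68 and Rec8 at 26.2 ± 5.24, within their spread.

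As a share of the counts per length of its paralogs, each member was the lesser part. Stag3 held 12.4%, 11.6% and 18.2% of the sum of Stag1, Stag2 and Stag3 in the untreated libraries (the last from Set 3). The siLuc shares were 10.0%, 10.5% and 14.6%, and the siStag3 shares 6.33%, 6.90% and 11.3%. Its share in siStag3 lay below all untreated shares and below the siLuc share of the same set, though the Set 3 siStag3 library was above both Set 1 siLuc libraries. Rec8 held 10.2% ± 2.64 of the sum with Rad21 in the untreated group, 7.36% ± 2.03 in that with siLuc and 7.24% ± 3.05 in that with siStag3. Smc1b held 7.00% ± 3.00, 8.19% ± 3.25 and 7.02% ± 2.96 of the sum with Smc1a in the same order (SD, n = 3). The smallest p of the 9 two-sided exact permutation tests of shares was 0.1, for Stag3 in siStag3 against untreated (0.643 after adjustment). With the median length the untreated share of Rec8 was 15.9% and that of Smc1b 1.81%, so the size of these shares depends on the transcript model.

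**Figure D4:**
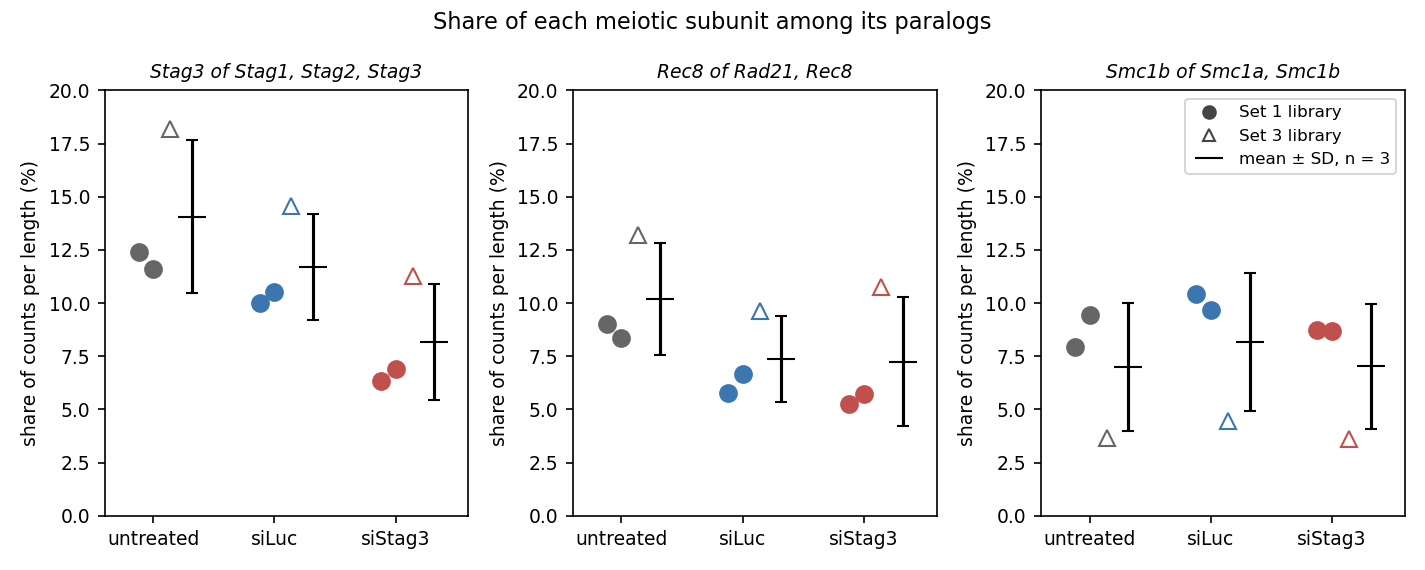
Share (vertical axis, percent) of Stag3, Rec8 and Smc1b in the counts per length summed over each subunit and its paralogs, by group (horizontal axis), with filled circles for Set 1, open triangles for Set 3 and the mean ± SD of 3 libraries in black. The Stag3 share is lower in siStag3 than in untreated cells in each set, and Set 3 lies above Set 1 for Stag3 and Rec8 and below it for Smc1b.

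Of the 5 somatic core genes, 0 passed in siStag3 against siLuc in any of the 3 edgeR fits, with a median log2 fold change of -0.07 without the set. Of all genes, 0% passed there without the set, 0.0281% with it and 0.358% with the GC correction. A 0 from a short list therefore says little. Stag2, the STAG subunit most used in many somatic cells, was the only core gene past the threshold elsewhere. It rose by 0.36 in siLuc against untreated with the set (SE 0.0880, edgeR adjusted p 0.0394), and was at 0.36 without the set (edgeR adjusted p 0.580). The GC correction left it at 0.14 (edgeR adjusted p 0.0718). Stag1 differed by -0.10 and Rad21 by -0.06 in siStag3 against siLuc with the set, with intervals of -0.24 to 0.04 and -0.19 to 0.07. Stag2 differed by -0.09 there (interval -0.28 to 0.10). Within Set 1 the differences were -0.01 for Stag1, 0.06 for Stag2, 0.02 for Rad21, 0.02 for Smc1a and -0.01 for Smc3. Within Set 3, with 1 library per group, they were -0.30, -0.42, -0.21, -0.02 and -0.24 in the same order. Expression of Rad21l, the other meiotic kleisin, was not analysed here. No run of 31 bases in the GENCODE transcripts was shared between Stag3 and Stag1 or Stag2, between Rec8 and Rad21, or between Smc1b and Smc1a or Smc3. Stag3 shared such runs with 821 other genes, at most 33 of its 6039 with any of them. Gpc2, a glypican gene, was included as a neighbour of Stag3, and whether the genes overlap in the annotation was not checked here. Gpc2 differed by 0.05 in siStag3 against siLuc with the set (SE 0.129, edgeR adjusted p 0.924). Whether counting used strand is not given in the sources used here.

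Of 14 genes tested that load, release, acetylate or cleave cohesin, 0 passed in siStag3 against siLuc in the 3 edgeR fits. At most 0.358% of all genes did, and the median of the 14 was -0.07 without the set. In siLuc against untreated with the set, 10 of 14 were higher, with a median of 0.15, and 9 were at an unadjusted p under 0.05, where 27.8% of all genes were. The GC correction brought that median to 0.01 and the 9 to 3, where 22.6% of all genes were. Pttg1, the securin that holds separase inactive, fell against untreated cells with the set, by 0.38 in siLuc (edgeR adjusted p 0.0307) and by 0.49 in siStag3 (edgeR adjusted p 0.00834). Without the set Pttg1 did not pass, at -0.35 and -0.48 (edgeR adjusted p 0.595 and 0.784). The 3 of highest level were Wapl, which releases cohesin, at 351 CPM, Pds5a, a regulator bound to the ring, at 264 and Ctcf, which stops loop extrusion, at 198. In siStag3 against siLuc with the set they differed by -0.10, -0.03 and -0.06.

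The genes of the synaptonemal complex and the meiotic chromosome axis were mixed in level. Of 8 tested, 0 passed the edgeR threshold in any contrast in the 3 fits, where at most 7.13% of all genes did. With the set, 0 of 8 were at an unadjusted p under 0.05 in siStag3 against siLuc, where 7.88% of all tested genes were. In siLuc against untreated 4 of 8 were, with 27.8% of all genes, and in siStag3 against untreated 2 of 8, with 17.0% of all genes. The median of the 8 was -0.12 in siStag3 against siLuc with the set. Syce2, a central element of the synaptonemal complex, was at 38.4 to 48.4 CPM, Hormad1, an axis protein, at 15.9 to 54.0 and Syce1, a further central element protein, at 8.65 to 16.1. The transverse filament gene Sycp1 was at 0.0330 to 1.02 CPM. Of 14 tested genes of meiotic entry, recombination and telomere attachment, 0 passed in siStag3 against siLuc in the 3 edgeR fits. At most 0.358% of all genes did. With the set, 1 of 14 was at an unadjusted p under 0.05, where 7.88% of all genes were. The GC correction brought this to 4 of 14, where 10.6% of all genes were.

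Stra8, which starts the meiotic programme, fell against untreated cells with the set, by 0.60 in siLuc (SE 0.111, edgeR adjusted p 0.0118) and by 0.82 in siStag3 (SE 0.112, edgeR adjusted p 0.00156), and without the set the contrasts gave -0.57 and -0.80 (edgeR adjusted p 0.580 and 0.411). Between siStag3 and siLuc Stra8 differed by -0.22 with the set (edgeR adjusted p 0.661). Rec114, which is needed for meiotic DNA breaks, rose by 0.23 in siStag3 against untreated with the GC correction (edgeR adjusted p 0.0336) and was at 0.20 with the set alone (edgeR adjusted p 0.195). Rec114 was the highest of this list at 20.7 CPM, followed by Stra8 at 11.5 and Meioc, which supports meiotic prophase, at 6.44.

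Of 16 repressors known from germline gene promoters, 0 passed in siStag3 against siLuc in the 3 edgeR fits. At most 0.358% of all genes did, and the median of the 16 was -0.01 with the set. Dnmt3b, a DNA methyltransferase, rose by 0.16 in siLuc against untreated with the GC correction only (edgeR adjusted p 0.0243). Uhrf1, Dnmt1 and Cbx3, which maintain DNA methylation or bind methylated histone H3, were the highest of the list at 811, 484 and 428 CPM. They differed by 0.14, 0.04 and -0.13 in siStag3 against siLuc with the set.

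Between the sets, most of the synaptonemal complex and axis genes differed in the direction of Smc1b, opposite to Rec8 and Stag3. Of the 8, 6 were lower and 0 higher in Set 3, where 21.2% of all tested genes were lower and 21.4% higher. Their median was -0.57, against 0.00 over all genes. With the GC correction 5 were lower and 0 higher, with a median of -0.46, where 21.1% of all genes were lower and 21.4% higher. Sycp1, Sycp2 and Hormad1 showed the largest differences of the 8, at -2.17, -1.30 and -1.18, though Sycp1 and Sycp2 had as few as 1 and 2 counts in a library, and Syce2 was at 0.09 (edgeR adjusted p 0.277). Of the 14 meiotic entry and recombination genes, 4 were lower and 1 (Rec114) higher in Set 3, and 3 lower and 1 higher with the GC correction, shares to be read against the same background. The summed germ cell markers ran from 60.9 to 77.4 CPM in Set 3 and from 74.1 to 95.9 in Set 1, and their part in the difference of Smc1b was not tested.

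**Figure D5:**
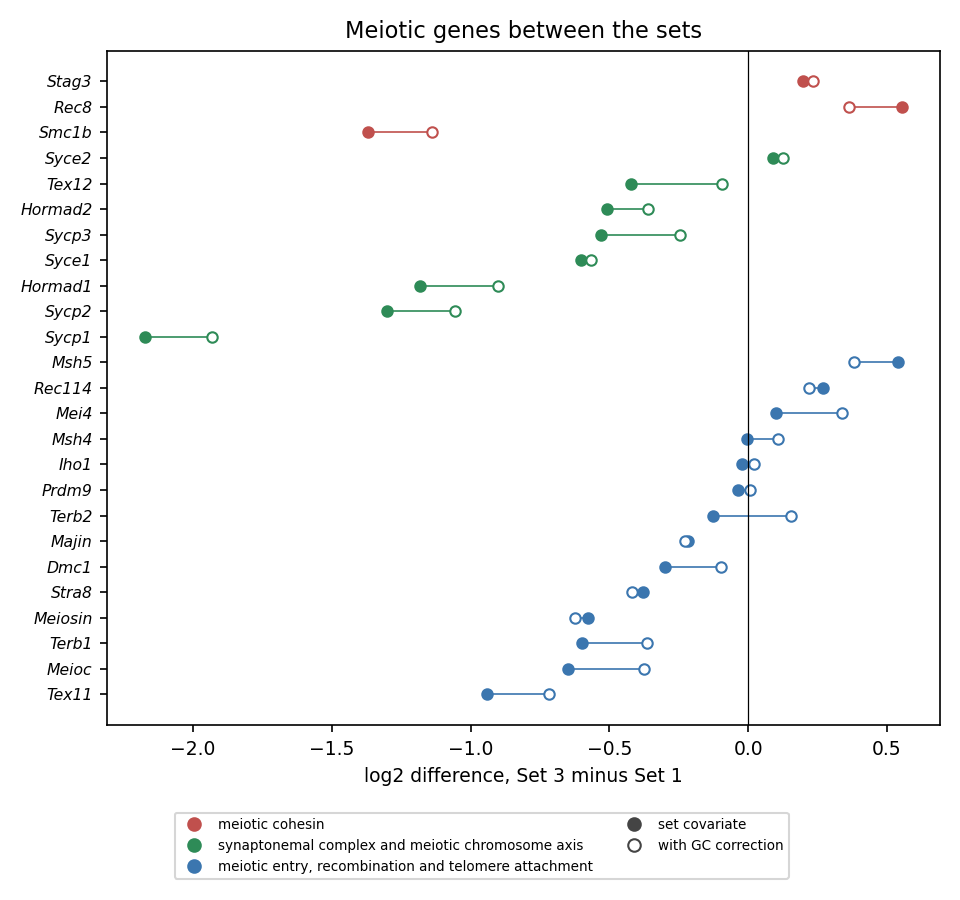
Log2 difference of Set 3 from Set 1 (horizontal axis) of members and tested synaptonemal complex, axis and meiotic entry genes (vertical axis). Filled circles show the fit with the set and open circles the same with the GC correction. Smc1b at -1.37 lies with Sycp2 and Hormad1, while Rec8 at 0.55 and Stag3 at 0.20 lie on the other side of 0.

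The members did not vary as 1 group across libraries. Over the 9 libraries Pearson's r of log2 CPM was 0.64 for Stag3 with Rec8, -0.18 for Stag3 with Smc1b and -0.81 for Rec8 with Smc1b. After the mean of each set was subtracted these were 0.73, 0.27 and -0.41. The points are shared libraries of 2 sets and 3 groups, so these are descriptions only.

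Among the 11228 tested genes whose mean log2 CPM was 1 or more, the genes most like each member over the 9 libraries, by the same r, were ranked. For Stag3 they were Arhgap9 (0.94), Tmem41a (0.93) and Tfap2c (0.93), and 8 genes exceeded 0.9. For Rec8 they were Slc30a2 (0.985), Dhrs11 (0.983) and Usp43 (0.978), with 344 genes above 0.9. For Smc1b they were Dock11 (0.991), Txnip (0.991) and Stag1 (0.988), with 807 above 0.9. Stag1 is itself lower in Set 3, by 0.62 on the log2 scale. With set means subtracted, the closest were Anxa8 for Stag3 (0.972), Atg16l2 for Rec8 (0.987) and Vkorc1l1 for Smc1b (0.976), none of which is among the 3 closest before the subtraction.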

How the data were processed

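Polyadenylated RNA of 9 libraries was sequenced, 3 each of untreated, siLuc and siStag3 cells. The authors deposited counts per gene as whole numbers, taken here as estimated counts, and Salmon, DESeq2, FastQC and GRCm39 are named in the submitters' processing notes with no role or version. Columns were assigned to groups by name. They carry no replicate numbers. The smallest row sum in the table is 9 counts, and 8 rows have no symbol.

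Counts were tested with edgeR 4.0.16 in R 4.3.3 (robust quasi-likelihood F test, TMM factors, filterByExpr) on all 9 libraries. P-values were adjusted by Benjamini-Hochberg over 14246 genes, with a threshold of 0.05. The SE is the absolute log2 fold change divided by the square root of F. The fit without the set is the main one, and alternatives were the set as covariate, that with medians of 20 GC bins subtracted from each library, DESeq2 1.42.0, other scalings and filters, Set 1 alone, each library left out and, added later, a block of set and experiment. Members, lists and tests were chosen with earlier results of these data known. Named genes are the members, their paralogs, partners and neighbours, list genes past the threshold, the 3 highest of each list and the 3 most like each member. CPM was scaled by TMM and log2 CPM used a prior count of 2.

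Transcript length and GC content came from GENCODE M21 (GRCm38), which holds 16604 of the 16636 genes and differs from the build in the notes. Promoters came from RefSeq (GRCm38.p6), which held all 3 members. The fits were first tested on simulated data with known changes. The edgeR p-values set each change against the spread between these libraries of 1 cell line, estimated with information shared across genes. Each group rests on 2 libraries of Set 1 and 1 of Set 3.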

Additional observations from a re-analysis of the deposited data

How the results depend on the processing

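Stag3 kept its direction in siStag3 against siLuc and against untreated in each setting tried, but not its side of the threshold. It passed against siLuc with DESeq2 (-0.70), the set (-0.71), the set with GC correction (-0.69) and Set 1 alone (-0.68), and against untreated with the same 4 (-0.79, -0.79, -0.79 and -0.75). Leaving out 1 library, with or without the set, gave -0.76 to -0.63 against siLuc and -0.85 to -0.71 against untreated. Rec8 passed against untreated in siLuc with the set (-0.35), and in siStag3 with the set (-0.48), the set with GC correction (-0.41) and Set 1 alone (-0.54). Its leave-one-out ranges were -0.54 to -0.17 and -0.72 to -0.28, and -0.37 to 0.081 in siStag3 against siLuc. For Smc1b these were -0.55 to 0.11 in siStag3 against siLuc, -0.029 to 0.62 in siLuc against untreated and -0.26 to 0.41 in siStag3 against untreated, where the set with GC correction reversed the sign (-0.058). For Stag3 in siLuc against untreated the range was -0.16 to 0.00097. The set difference of Stag3 was 0.18 to 0.23, and those of Rec8 and Smc1b passed in each of 9 such fits. Genes called in siStag3 against siLuc were 0 in the main fit, 7 with DESeq2, 4 with the set, 51 with the set and GC correction, 4 in Set 1 alone and 0 to 4 with a library left out. In siLuc against untreated they were 1 in the main fit, then 54, 598, 1016 and 298, and 0 to 387. In siStag3 against untreated they were 2, then 69, 361, 932 and 949, and 1 to 1591, with 4 by DESeq2 size factors, 5 by total count and 1 in the 6 libraries compared. The cause of these shifts was not tested. The column names lack the replicate numbers of the titles, so a replicate block of set and experiment number was added after the data were seen. In it Stag3 passed against siLuc (-0.70) and untreated (-0.80), Rec8 passed against untreated in siStag3 (-0.48) but not in siLuc (-0.34, edgeR adjusted p 0.196), and 2, 86 and 352 genes were called in siStag3 against siLuc, siLuc against untreated and siStag3 against untreated. The Set 3 library of siLuc has an experiment number different from that of the siStag3 and untreated Set 3 libraries, so it was alone in its block. Contrasts with siLuc in the block fit therefore took siLuc from its Set 1 libraries only. After set means were subtracted, deviations from the group means correlated across genes at -0.40 to -0.04 between libraries of the same set and experiment. Between libraries of the same set with different experiment numbers they correlated at -0.69 to 0.06. Subtracting the means itself pushes such correlations below 0, so these values cannot decide whether a shared experiment number is a pairing. It was not taken as one in the main fit.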
